A study of Mus musculus with 12 samples.

Results

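The early growth response (EGR) genes Egr1, Egr2, Egr3 and Egr4 encode zinc finger transcription factors, and Nab1 and Nab2 encode NGFI-A binding (NAB) proteins, corepressors of EGR factors. All 6 were examined in nucleus accumbens (NAC) of postpartum and virgin mice. They are 6 of 22180 genes that the array annotation names singly. Each gene was chosen by its symbol, and where it had several probesets, as Nab2 had, the probeset with the highest mean log2 intensity over all 12 arrays was used. That mean is the only measured value behind the choice of probeset, and it does not depend on the groups, but the family itself was picked with results from these arrays already known.

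NAC is a ventral striatal region central to natural reward, and the study asked how its gene expression differs in mothers, for which offspring are highly rewarding. The postpartum group held 6 lactating mothers taken on postpartum day 7, whose litters had been set to 11 pups at birth. The virgin group held 6 females of the same age in diestrus. All were adult outbred hsd:ICR mice. After the mating period they were housed singly until the mothers gave birth. The groups differ in mating, pregnancy, birth, lactation and pup contact together. Tissue was punched from core and shell, 1 mouse gave 1 Mouse Gene 2.0 ST array, and the deposited value is a PLIER intensity, a linear brightness per probeset. The 8 measured markers of medium spiny neurons, the main cell type of NAC, had intensities of at least 920.03 on every array.

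EGR genes are immediate early genes. Synaptic activity and growth factors switch them on within minutes through the ERK kinases, which act on serum response factor and ELK proteins at CArG boxes, and through CREB at cAMP response elements. The EGR proteins then bind GC-rich sites in promoters, and NAB1 and NAB2 bind EGR1, EGR2 and EGR3 and repress their activity, partly through the NuRD chromatin remodeling complex. In striatum, EGR1 and EGR3 are widely used markers of neuronal response to reward and drugs.

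Promoter sequence is shown for the 3 members whose windows held a searched motif and that appear in the correlated pairs described further on. Each run is the 250 bases before a RefSeq start site on build GRCm38.p6, written 5′ to 3′ on the strand of the gene. Capitals mark the matches to 3 motifs searched on both strands, the CArG box of serum response factor, the EGR site GCGNGGGCG and TGACG, the half-site of the cAMP response element.
Egr2, chr10:67537619-67537868, plus strand: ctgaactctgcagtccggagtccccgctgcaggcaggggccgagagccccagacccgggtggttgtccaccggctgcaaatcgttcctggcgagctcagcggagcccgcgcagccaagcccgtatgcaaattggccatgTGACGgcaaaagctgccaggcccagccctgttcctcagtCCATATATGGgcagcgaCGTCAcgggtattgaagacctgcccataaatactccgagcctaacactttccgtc
Egr4, chr6:85513590-85513839, minus strand: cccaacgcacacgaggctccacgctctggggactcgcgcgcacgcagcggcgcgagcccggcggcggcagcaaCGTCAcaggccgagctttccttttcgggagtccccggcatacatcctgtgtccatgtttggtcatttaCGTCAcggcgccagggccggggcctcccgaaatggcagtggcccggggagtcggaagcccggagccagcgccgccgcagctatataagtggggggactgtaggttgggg
Nab1, chr1:52500449-52500698, minus strand: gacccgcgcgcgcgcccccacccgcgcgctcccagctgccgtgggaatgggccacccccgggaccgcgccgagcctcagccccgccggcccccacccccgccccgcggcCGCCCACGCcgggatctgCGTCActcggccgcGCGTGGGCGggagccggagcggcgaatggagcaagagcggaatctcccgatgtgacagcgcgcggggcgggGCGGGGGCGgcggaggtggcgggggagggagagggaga
In Egr2 the CArG box lay 72 bases before the start, flanked by TGACG matches at 111 and 55 bases. Of 5 RefSeq windows for Egr2, 4 held a CArG box, and the window at the most upstream start held none of the motifs. Those 4 are not separate sites. The windows beginning at 67537619, 67537620 and 67537680 overlap and share 1 CArG box, and the window beginning at 67537316 holds a different one. Egr4 had TGACG matches at 177 and 109 bases and no CArG box in this window. Nab1 had 3 EGR sites, at 141, 109 and 38 bases, and a TGACG match at 123 bases. The Nab2 window held none of the motifs. Of 32817 promoter windows of this length, 1.47% held a CArG box, 4.7% an EGR site and 17.7% a TGACG match, and none of the matches overlapped another in the printed windows. A match describes the letters only. No window was used for Egr1 or Egr3.

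Egr1 and Egr2 were higher in postpartum NAC, Egr4 lay between the thresholds, and Egr3, Nab1 and Nab2 did not pass the test. The words rose and fell are kept for genes with an unadjusted limma p under 0.01, which was the main threshold of the study. By this rule 2 of the 6 genes rose and 0 fell. Over all annotated genes 2.8% were called, 1.72% as higher and 1.08% as lower, and over all probesets 2.3% were called. The split of called genes was 382 higher and 239 lower, 636 and 95 with each array centred on its median, and 653 and 278 on linear intensities. In both alternatives Egr1 and Egr2 were the members called. At p under 0.03, the wider threshold of the study, 3 of the 6 genes were called, beside 2371 of all 41345 probesets. The median log2 fold change of the 6 was 0.16, against -0.0052 over all genes. None passed an adjusted p under 0.05 in limma with Benjamini-Hochberg adjustment over all probesets, where 0 of 41345 probesets passed and 3685, 3 of the 6 genes among them, had an unadjusted p under 0.05.

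Egr1 (probeset 17349514, chromosome 18) is the EGR factor most often used as an activity marker. Its intensities on the postpartum arrays were 2267.41, 2022.12, 2030.55, 1741.96, 1869.89 and 1924.21. On the virgin arrays they were 1538.38, 1856.18, 1363.44, 1526.29, 1406.41 and 1677.35. Only postpartum mouse 4 fell within the virgin range, below virgin mouse 2, and the other 5 postpartum mice lay above all 6 virgin mice. The mean was 1976 ± 178 in postpartum NAC and 1561 ± 182 in virgin NAC (SD, n = 6 each). Egr1 was thus 1.27-fold higher in postpartum NAC (95% interval 1.12 to 1.44), a log2 fold change of 0.34 (SE 0.08, limma p = 0.00158, adjusted p = 0.333, exact permutation p = 0.00433). The smallest p that the 924 divisions of 12 arrays into 6 and 6 allow is 0.00216, and all permutation tests here are two-sided.

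Egr2 (probeset 17233993, chromosome 10:67534469-67542188), also known as Krox-20, directs hindbrain segmentation and Schwann cell myelination and is also induced by activity in neurons. Postpartum arrays had Egr2 intensities of 373.27, 335.85, 308.33, 263.69, 313.63 and 341.89. Virgin arrays had 188.22, 295.81, 181.57, 271.22, 136.39 and 238.04. Again postpartum mouse 4 was the only one inside the virgin range, below virgin mice 2 and 4. Means were 323 ± 37.1 in postpartum NAC and 219 ± 60.3 in virgin NAC (n = 6 each, SD), a 1.52-fold rise (95% interval 1.17 to 1.97). The log2 fold change of 0.60 (SE 0.17) was the largest of the 6 genes (limma p = 0.00434, adjusted p = 0.379, exact permutation p = 0.00649). The mice of the virgin group differed more among themselves, with a coefficient of variation of 27.6%, against 11.5% in postpartum mice, a difference in spread for which no test was run. The call for Egr2 was lost when postpartum mouse 1, virgin mouse 1 or virgin mouse 3 was left out, where the log2 fold change was 0.56, 0.57 and 0.56 and the limma p at most 0.0111.

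Egr4 (probeset 17468405, chromosome 6:85511121-85513589), the EGR factor that lacks the domain NAB proteins bind, is needed for sperm development. The 6 postpartum arrays gave 704.49, 857.45, 734.94, 707.88, 808.08 and 774.67. The virgin arrays gave 653.63, 801.77, 622.32, 684.38, 598.38 and 672.75. All 6 postpartum mice were above the virgin median, but virgin mouse 2 was higher than 4 of them. The mean was 765 ± 60.5 in postpartum NAC and 672 ± 71.0 in virgin NAC (SD, n = 6 each), with a log2 fold change of 0.19 (SE 0.08, 95% interval 0.02 to 0.35). With limma p = 0.0290, adjusted p = 0.520 and exact permutation p = 0.0390, Egr4 passed the wider threshold only. The wider threshold was missed in 9 of 12 fits that left out 1 array, all but those without postpartum mouse 1, postpartum mouse 4 or virgin mouse 2, with a limma p of up to 0.0676 without postpartum mouse 2. It was also missed after quantile normalization, with a limma p of 0.0554. Without virgin mouse 2 the log2 fold change was 0.24 and the limma p 0.00336, under the main threshold.

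Egr3 (probeset 17301718, chromosome 14:70077317-70082613) is induced in neurons alongside Egr1 and is required for muscle spindle formation. In postpartum mice its intensities were 886.75, 1044.57, 1133.12, 1005.73, 984.86 and 1062.37. In virgin mice they were 1243.35, 977.66, 870.29, 948.55, 876.67 and 1063.19. The groups overlapped fully, and the highest Egr3 value belonged to virgin mouse 1. The mean of 1019.6 ± 82.9 in postpartum NAC stood beside 997 ± 140.2 in virgin NAC (SD, n = 6 each), with a log2 fold change of 0.04 with a 95% interval of -0.16 to 0.24 (limma p = 0.668, adjusted p = 0.922, exact permutation p = 0.673). The Egr3 value was 0.11 without virgin mouse 1 and 0.0031 without virgin mouse 3, and it was not called with any array left out.

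**Figure D1:**
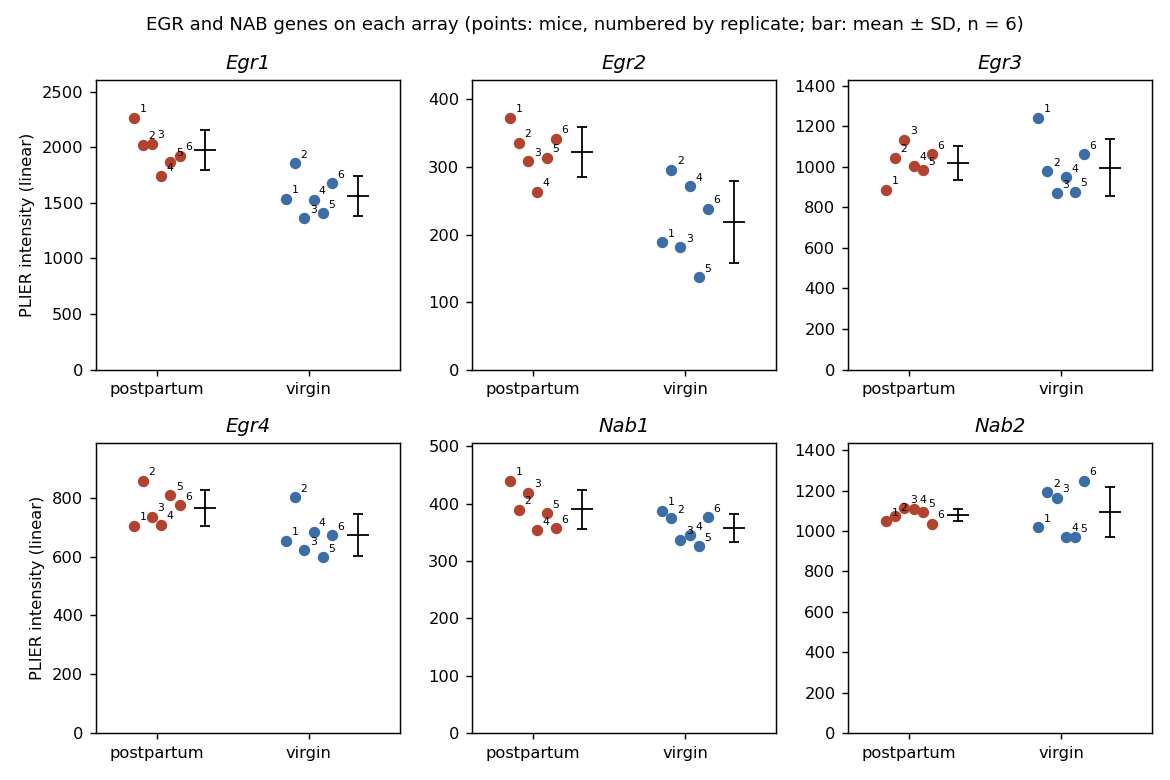
PLIER intensity (linear, axes from 0) of the 6 genes on each of 12 arrays, postpartum mice in red on the left and virgin mice in blue on the right, numbered by replicate, with the mean and SD of each group (n = 6). For Egr1 and Egr2 only postpartum mouse 4 falls within the virgin range.

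Nab1 (probeset 17222913, chromosome 1:52455849-52500712) encodes the NAB protein generally regarded as constitutively expressed. Postpartum intensities were 439.81, 389.28, 418.95, 354.01, 383.25 and 357.02. Virgin intensities were 387.5, 374.4, 336.97, 345.38, 325.57 and 375.96. The groups overlapped, with 3 postpartum mice above the highest virgin value. The mean was 390 ± 33.9 in postpartum NAC and 358 ± 25.0 in virgin NAC (SD, n = 6 each), with a log2 fold change of 0.12 with a 95% interval of -0.02 to 0.27 (limma p = 0.0897, adjusted p = 0.614, exact permutation p = 0.0866).

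Nab2 encodes the NAB protein that EGR factors induce as their own feedback inhibitor. Its brighter probeset (17246019, chromosome 10:127660918-127666703) read 1048.88, 1073.71, 1112.5, 1110.77, 1091.54 and 1036.01 in postpartum mice. In virgin mice it read 1018.75, 1190.24, 1163.58, 971.08, 967.57 and 1247.66. All 6 postpartum values lay inside the virgin range, and their coefficient of variation was 2.95%, against 11.2% in virgin mice. The mean was 1079 ± 31.9 in postpartum NAC and 1093 ± 122 in virgin NAC (SD, n = 6 each), with a log2 fold change of -0.01 with a 95% interval of -0.16 to 0.14 (limma p = 0.867, adjusted p = 0.974, exact permutation p = 0.872). The dimmer probeset of Nab2 (17238088) did not pass the test either. It averaged 217 ± 9.92 in postpartum NAC and 229 ± 21.3 in virgin NAC (SD, n = 6 each), with a log2 fold change of -0.07 with a 95% interval of -0.21 to 0.07 (limma p = 0.290, exact permutation p = 0.273). None of the 3 NAB probeset intervals reached the Egr1 estimate of 0.34.

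**Figure D2:**
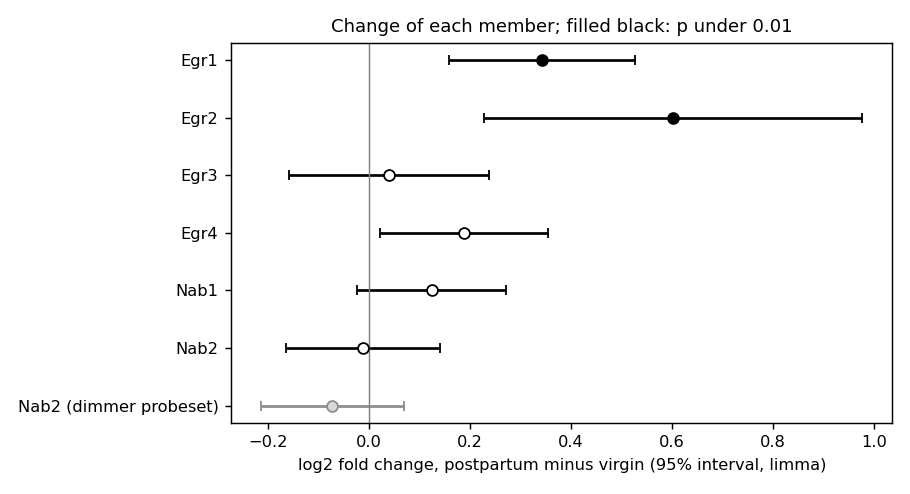
Log2 fold change of each gene, postpartum minus virgin, with its 95% interval from limma (6 arrays per group), where filled black points have p under 0.01. The intervals of Egr1 (0.16 to 0.53) and Egr2 (0.23 to 0.98) lie furthest above 0, that of Egr4 begins at 0.02, and those of Egr3, Nab1 and both Nab2 probesets hold 0.

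Whether the members changed unequally was tested on the ratio of their intensities within each array, in all 15 pairs, a comparison added once their values had been seen. The change of Egr1 exceeded that of Egr3 by 0.30 on the log2 scale (SE 0.12, exact permutation p = 0.00866, adjusted over the 15 pairs 0.0390). That of Egr2 exceeded that of Egr3 by 0.56 (exact permutation p = 0.0195, adjusted 0.0417). Egr1 and Egr2 had a larger change than Egr3 at an adjusted p under 0.05, on the same arrays that gave their calls. Egr1 also exceeded Nab1 by 0.22 (exact permutation p = 0.00866, adjusted 0.0390) and Nab2 by 0.35 (exact permutation p = 0.00433, adjusted 0.0390). Egr2 exceeded Nab1 by 0.48 (exact permutation p = 0.0173, adjusted 0.0417) and Nab2 by 0.61 (exact permutation p = 0.0130, adjusted 0.0390). Both called EGR genes had a larger change than both corepressors on these arrays, again at an adjusted p under 0.05. The adjustment over the 15 pairs does not cover the choice of this family from results of the same arrays. Egr2 exceeded Egr4 by 0.41 (exact permutation p = 0.0130, adjusted 0.0390), and the other 8 pairs did not pass. With any 1 array left out, each of these 7 pairs kept an exact permutation p of at most 0.0433 before adjustment. Egr1 and Egr2 themselves were not told apart (-0.26, exact permutation p = 0.0628, adjusted 0.0974), nor were Egr1 and Egr4 (0.15, exact permutation p = 0.0649, adjusted 0.0974).

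The same mice tended to be high or low for Egr1, Egr2 and Egr4. Averaged over these 3 genes, the deviation from the mean of all arrays was 0.29, 0.28, 0.17, -0.00029, 0.18 and 0.22 in postpartum mice 1 to 6 on the log2 scale. In virgin mice 1 to 6 it was -0.26, 0.15, -0.36, -0.07, -0.50 and -0.09. Postpartum mouse 4 was the lowest mother for Egr1 and Egr2, and virgin mouse 2 was the highest virgin for Egr1, Egr2 and Egr4. Virgin mice 3 and 5 were the lowest of all 12 for each of these 3 genes. Virgin mice 3 and 5 were also the lowest of all 12 for Egr3 (-0.20 and -0.19) and for Nab1 (-0.15 and -0.20). Otherwise Egr3 departed from this order, since it was low in postpartum mouse 1 (-0.18) and highest in virgin mouse 1 (0.31).

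**Figure D3:**
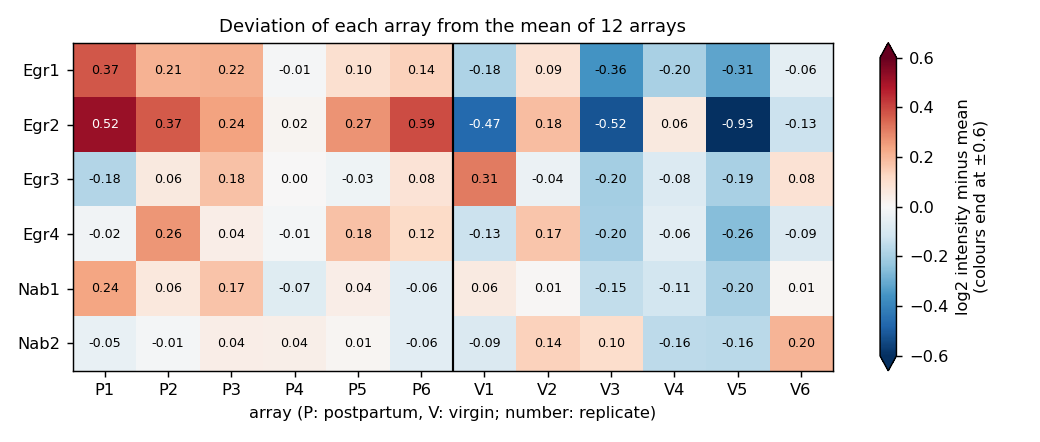
Deviation of each gene from its own mean over 12 arrays (log2 intensity, colour and printed value), with postpartum mice P1 to P6 left of the line and virgin mice V1 to V6 right of it. Egr2 spans the widest range, 0.52 in P1 and -0.93 in V5, whereas Egr3 is highest in V1 (0.31).

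Across the 12 arrays, 4 of the 15 pairs of genes were correlated after adjustment over the pairs (permutation tests of Pearson's r, 100000 resamples). Egr1 and Egr2 had the closest relation, with r = 0.90 (permutation p = 2e-05, adjusted 0.0003) and rho = 0.90 (permutation p = 0.00015, adjusted 0.00225). The r was 0.86 in the 6 postpartum mice (exact p = 0.0444, adjusted 0.222) and 0.78 in the 6 virgin mice (exact p = 0.0681, adjusted 0.255). Without the 2 arrays farthest from the median of Egr1 it was 0.86, so r was high within both groups, although neither value within a group passed adjustment over the 15 pairs. Egr1 and Nab1 gave r = 0.82 (permutation p = 0.00125, adjusted 0.00625) and rho = 0.82 (adjusted permutation p = 0.0146). Their r was 0.88 in postpartum mice (exact p = 0.0208, adjusted 0.222) and 0.72 in virgin mice (exact p = 0.110, adjusted 0.329). Without the 2 farthest arrays it was 0.70. Nab1 thus varied with Egr1 over the 12 arrays, although neither value within a group passed adjustment. The group difference of Nab1 did not pass the test.

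The correlations of Egr4 with Egr1 and Egr2 were low in postpartum mice and high in virgin mice. For Egr2 and Egr4 r was 0.82 over all arrays (adjusted permutation p = 0.0051) and rho 0.78 (adjusted permutation p = 0.0188), with r of 0.20 in postpartum mice (exact p = 0.733) and 0.88 in virgin mice (exact p = 0.0167). For Egr1 and Egr4 r was 0.75 over all arrays (adjusted permutation p = 0.0206) and rho 0.73 (adjusted permutation p = 0.0328), with r of -0.10 in postpartum mice (exact p = 0.849) and 0.92 in virgin mice (exact p = 0.0111). The difference between the groups in r was not tested, and no r within a group passed adjustment over the 15 pairs. Without the 2 farthest arrays r was 0.66 for Egr2 and Egr4 and 0.54 for Egr1 and Egr4. Egr3 was not correlated with any other member over the 12 arrays, with r of 0.20 with Egr1 and 0.16 with Egr2 (adjusted permutation p = 0.694 for both). Both turned negative without the 2 farthest arrays, to -0.37 with Egr1 and -0.64 with Egr2. With Nab1 the r of Egr3 was 0.37 over all arrays (adjusted permutation p = 0.510). That r was 0.89 in virgin mice (exact p = 0.00833, adjusted 0.0833) and -0.31 in postpartum mice (exact p = 0.579).

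**Figure D4:**
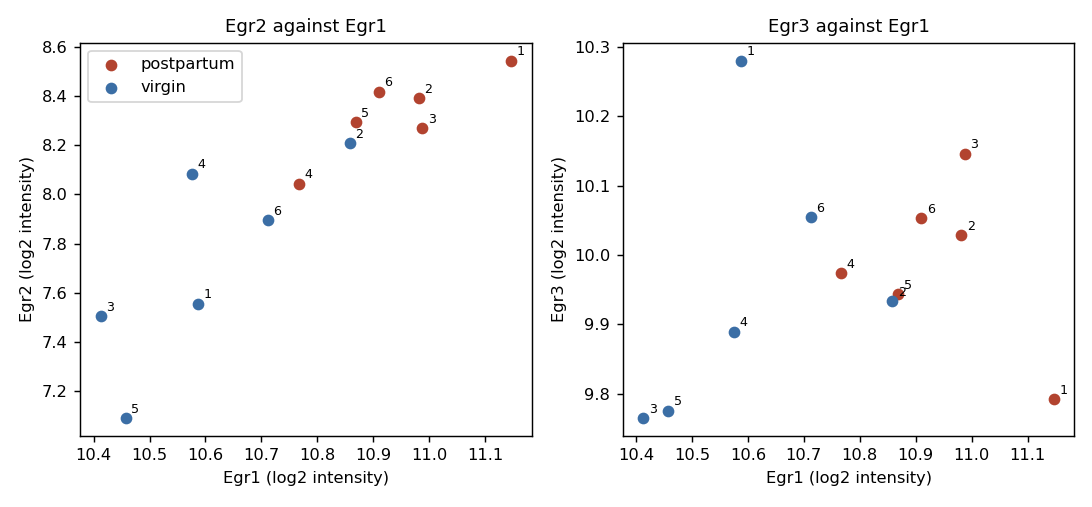
Log2 intensity of Egr2 (left) and Egr3 (right) against that of Egr1 on 12 arrays, postpartum mice in red and virgin mice in blue, numbered by replicate. Egr2 rises with Egr1 (r = 0.90) and Egr3 does not (r = 0.20), with virgin mouse 1 and postpartum mouse 1 lying far from the other points in the right panel.

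Among 13303 annotated genes with a mean above the median of all probesets, the 3 whose log2 values ran most like each member over the 12 arrays are given as a description, with r after centring on group means in brackets. Nearest to Egr1 were the synaptic protein gene Arc, r = 0.95 (0.88), Midn, r = 0.93 (0.85), and the inositol phosphatase gene Synj2, r = 0.93 (0.85). Nearest to Egr2 were the endoplasmic reticulum autophagy receptor gene Ccpg1, r = 0.97 (0.93), Pygo1, r = 0.95 (0.93), and Cracd, r = 0.93 (0.86). Egr1 and Egr2 shared none of these neighbours, but lists of only 3 genes each are too short to show a difference between them. For Egr3 they were Ddit3, a stress-induced transcription factor gene, r = 0.87 (0.89), the adhesion molecule gene Nptn, r = 0.87 (0.87), and Pik3r4, r = 0.86 (0.86). For Egr4 they were the actin nucleation gene Arpc5, r = 0.90 (0.83), Rps19bp1, r = 0.89 (0.81), and the matrix protein gene Ccn1, r = 0.88 (0.80). All 18 were picked as the highest of 13303, which alone raises r. Nab1 ran most like Washc4, r = 0.89 (0.86), the corepressor gene Tle3, r = 0.88 (0.83), and Lonp2, r = 0.87 (0.83). Nab2 ran most like the mitochondrial ribosomal gene Mrps15, r = 0.92 (0.94), Cfap99, r = 0.90 (0.90), and the RNA polymerase II subunit gene Polr2g, r = 0.90 (0.91).

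The factors that act above the EGR genes and the genes known to lie below them gave 1 call each. Of 11 measured kinases and transcription factors that switch EGR genes on, 1 rose and 0 fell, a share of 9.09% beside 2.8% of all genes, with a median log2 fold change of -0.0092. The one that rose was Creb1, which encodes CREB (log2 fold change 0.13, SE 0.04, limma p = 0.00968, exact permutation p = 0.00866). Srf, which encodes serum response factor and is singled out here after its value was seen, passed the wider threshold only (0.14, limma p = 0.0192, exact permutation p = 0.0173). Of 19 measured genes described as EGR targets, 1 rose and 0 fell, with a median of -0.01. That was Arc (log2 fold change 0.37, SE 0.10, limma p = 0.0023, exact permutation p = 0.00649), and 11 of the 19 target genes had a negative fold change. Sgk1, likewise singled out after its value was seen, passed the wider threshold only (0.33, limma p = 0.0117, exact permutation p = 0.0216). The share of EGR target genes called was 5.26%. Each of these shares rests on 1 called gene.

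The corepressor partners and related binding proteins gave no call, where 2.8% of all annotated genes were called. At that share, lists this short would often hold no called gene. All 13 genes of the NuRD complex were measured and 0 passed at p under 0.01, with fold changes from -0.08 to 0.09 on the log2 scale, and the smallest p was that of Mbd2, a methyl-CpG binding subunit (-0.08, limma p = 0.0711, exact permutation p = 0.0216). Nor did any of the 4 measured EGR2 targets of Schwann cells, where Pmp22, a peripheral myelin protein gene, had the smallest p (-0.22, limma p = 0.0559, exact permutation p = 0.0693). Of 4 other zinc finger genes whose products bind GC boxes, 0 passed, with Wt1 the smallest p (-0.08, limma p = 0.261, exact permutation p = 0.249). In none of these 3 lists did a gene have an unadjusted limma p under 0.05.

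Some genes of other immediate early families also rose. Over all annotated genes 2.8% were called, 1.72% as higher. Of 6 measured AP-1 genes 3 rose, with a list median of 0.33, namely Fosb (log2 fold change 0.41, limma p = 0.00327, exact permutation p = 0.00649), Jun (0.31, limma p = 0.00441, exact permutation p = 0.00866) and Junb (0.27, limma p = 0.00765, exact permutation p = 0.0108). Of the 3 NR4A nuclear receptor genes, Nr4a1 (0.68, limma p = 0.000156, exact permutation p = 0.00433) and Nr4a3 (0.77, limma p = 0.00221, exact permutation p = 0.00866) rose, with a list median of 0.77. The Egr2 change of 0.60 stood nearest to those of the NR4A genes and the Egr1 change of 0.34 among those of the AP-1 genes. No test was made between the families.

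**Figure D5:**
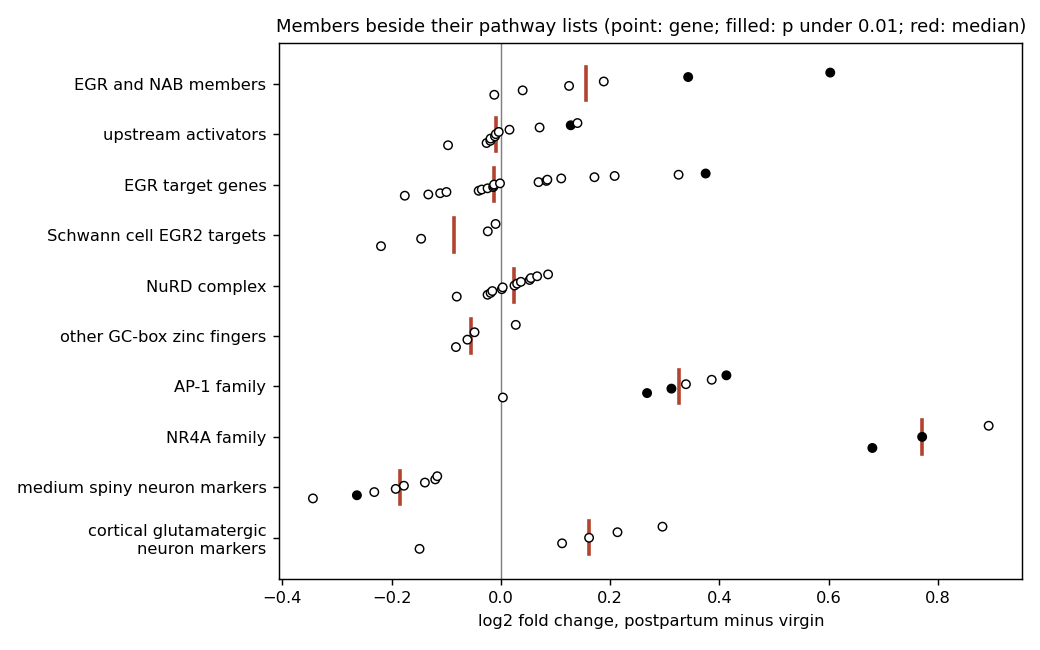
Log2 fold change, postpartum minus virgin, of each measured gene (point) in the EGR and NAB family and in 9 lists, with filled points for p under 0.01 and a red line at the median. Egr1 and Egr2 are the filled points of the top row. The medians of the upstream activators, target genes, NuRD subunits and other zinc fingers lie between -0.055 and 0.025. That of the Schwann cell EGR2 targets is -0.085.

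Cell type markers were examined on the same arrays. In bulk tissue, fewer cells of a type and less RNA per cell cannot be told apart. The 8 measured markers of medium spiny neurons all had negative fold changes (median -0.18), of which Rgs9, a regulator of G protein signaling, passed as lower (-0.26, limma p = 0.00799, exact permutation p = 0.0108). Their summed intensity ran from 21148.7 to 27730.6 (median 25144.8) in postpartum NAC and from 25235.7 to 29806.2 (median 29223.3) in virgin NAC. Of 5 measured markers of cortical glutamatergic neurons 4 had positive fold changes, 1 (Cux2) had a negative one, and 0 passed at p under 0.01 (median 0.16). Their summed intensity ran from 6065.75 to 10436.9 (median 9298.01) in postpartum NAC and from 5972.69 to 8842.97 (median 8450.89) in virgin NAC. None of the defining markers of either list was at 0 on any array. In the other 9 marker lists 2 genes were called, 1 each in 2 lists and none in the rest, where 2.8% of all annotated genes were called. Of 7 interneuron markers Calb2 rose (0.58, limma p = 0.00188, exact permutation p = 0.00433), while 4 were positive and 3 negative in all (median 0.05). Of 5 oligodendrocyte markers Opalin fell (-0.47, limma p = 0.00885, exact permutation p = 0.0173), while 2 were positive and 3 negative in all (median -0.04). All 5 measured neuroblast and progenitor markers were positive (median 0.15) and 0 passed at p under 0.01. Their summed intensity ran from 1622.78 to 2060.27 (median 1831.38) in postpartum NAC and from 1524.74 to 1789.5 (median 1715.74) in virgin NAC.

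Egr1 and Egr2 ran against the medium spiny neuron marker mean across arrays (r = -0.68 and -0.72, or -0.43 and -0.51 after centring on group means). They ran with the cortical marker mean (r = 0.64 and 0.59, or 0.64 and 0.54 after centring). With the medium spiny neuron marker mean in the fit as a covariate, Egr1 had a log2 fold change of 0.26 (adjusted p = 0.609 in limma) and Egr2 of 0.38 (adjusted p = 0.647), and neither passed an unadjusted p under 0.01. With the cortical marker mean in the fit, Egr1 still passed that threshold (0.28, adjusted p = 0.334 in limma) and Egr2 missed it (0.49, adjusted p = 0.414). Egr3 had a log2 fold change of 0.13 with the medium spiny neuron covariate, where it was not called. The change of Egr1 then exceeded that of Egr3 by 0.12 and that of Egr2 exceeded it by 0.25, against 0.30 and 0.56 without the covariate. With the same covariate Egr1 exceeded Nab1 by 0.16 and Nab2 by 0.25, against 0.22 and 0.35 without it. Egr2 exceeded Nab1 by 0.29, Nab2 by 0.37 and Egr4 by 0.23, against 0.48, 0.61 and 0.41 without it. No test was run on these differences with the covariate. Egr1 and Egr2 had positive fold changes in each of these fits, which were added after seeing the data. The part of cell composition in these differences was not tested.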

How the data were processed

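The 12 arrays hold NAC RNA of 6 postpartum and 6 virgin mice, grouped by the labels. The authors summarized and normalized the scans with PLIER (Affymetrix Power Tools 1.12.0 in the submitters' processing notes). They deposited 1 linear intensity for each of 41345 probesets on each array. Array medians were 153 to 158.07 in postpartum and 154.71 to 164.98 in virgin arrays, pairs of arrays had Spearman correlations of 0.976 to 0.990 over probesets, and the number of arrays limits the precision.

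Intensities were raised to a floor of 1, which 914 probesets needed on at least 1 array, and converted to log2. Postpartum minus virgin contrasts were fitted over all probesets with lmFit and eBayes (no trend) of limma 3.58.1 under R 4.3.3, with Benjamini-Hochberg adjustment, and single genes also with exact permutation tests (scipy 1.17.1). The fit was tested on simulated data. In the platform annotation 23521 probesets carry 1 gene, 1820 carry several and 16004 are not listed. The 7 pathway lists and 11 marker lists were written from general knowledge. The members and lists were chosen with earlier results of these data known. The text names the 6 members and for each member the 3 genes of highest r. In each pathway list it names the genes with p under 0.01 or else the gene of smallest p. Of the marker lists it names genes with p under 0.01. The AP-1 and NR4A genes that were not called, and Srf, Sgk1 and Cux2, are named as well. Genes of a list without a single-gene probeset were left out. Promoter windows and gene coordinates are from RefSeq (GRCm38.p6), and probeset positions were not compared with them. Alternatives were quantile normalization, linear intensities, an offset of 16 before log2, arrays centred on their median, above-median probesets only, eBayes with a trend or robust, array weights, replicate blocks, the mean of all probesets of a gene and each array left out in turn. The scale of the limma fit in the study is not given in the sources used here. On linear intensities 1262 probesets had p under 0.01 and 2743 had p under 0.03. Those counts lay closer to the ones the study reported than the 951 and 2371 of the main fit, which called fewer. Leaving out the 2 arrays of lowest correlation, the 2 marker covariates and the repeats of the differences between members were added after seeing the data.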

Additional observations from a re-analysis of the deposited data

How the results depend on the processing

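Egr1 kept its direction in all 25 alternatives and its call in 24, with a log2 fold change of 0.26 to 0.44 over 13 settings and 0.30 to 0.39 when single arrays were left out. Egr2 was positive in all 25 and called in 20 (0.38 to 0.77, and 0.48 to 0.70 with single arrays left out). The number of the 6 genes called, 2, was 1 with the cortical marker mean as a covariate and 0 with the medium spiny neuron marker mean, and 1 to 3 when single arrays were left out. It was 1 without postpartum mouse 1, virgin mouse 1 or virgin mouse 3, and 3 without virgin mouse 2, where Egr4 was called. Without the 2 arrays of lowest correlation, virgin mice 2 and 6, Egr4 was also called (0.26, limma p = 0.00473, adjusted p = 0.480). The Nab2 value of -0.012 turned to 0.0218 with arrays centred on their median, 0.0062 with array weights, 0.0076 with the medium spiny neuron covariate and 0.0702 without the 2 arrays of lowest correlation, and ran from -0.0457 to 0.0277 with single arrays left out. It was never called. The correlation of Egr1 and Egr4 was 0.53 after centring on group means. Causes of these changes were not tested.

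Centring arrays on their median shifted the median of all probesets from -0.012 to 0.021, and the 951 called probesets (511 higher, 440 lower) became 1063 (856 higher, 207 lower), or 1262 (797 higher, 465 lower) on linear intensities. At adjusted p under 0.05 limma passed 10 probesets on linear intensities, 16 with a trend, 26 among above-median probesets and 14 with all probesets of a gene averaged, none of them of the 6 genes. Same-numbered mice deviated together with correlations of -0.21 to 0.20, and 2 of 6 pairs were over 0.1, so the numbers were not taken as pairs. With the replicate block Egr1 (0.34) and Egr2 (0.60) kept their calls in limma, with an unadjusted p of 0.00396 and 0.00962. The block left 652 called probesets and 326 called annotated genes, against 951 and 621 without it. No group of 6 values of a member held a value far enough from the rest to be called an outlier by Dixon's test, over 12 groups.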
